A study of Rattus norvegicus with 2 samples.

Results

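The miR-29 family was examined in 2 small RNA libraries of Wistar rat left ventricle, taken at 16 weeks of age. One library came from control animals kept under normal conditions. The other came from animals that swam for 90 minutes in each of 2 daily sessions over 8 weeks, which gave a physiologically enlarged heart according to the study's design. Each condition had 1 library, and the sources used here do not say how many animals gave RNA to it. The members are the rows named mir-29a, mir-29b-1, mir-29b-2 and mir-29c, which are 4 of the 193 unmarked miRNA rows. Both mir-29b rows held equal counts in each library, so the 4 rows stand for 3 measurements. The rows were picked by name, but the family was chosen with earlier results of these data known. Taking the mir-29b copies as 1 measurement rests on their equal counts.

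MicroRNAs are short RNAs that pair through a stretch near their 5′ end, the seed, with sites in messenger RNAs and lower the output of those messengers. The miR-29 family is best known for pairing with transcripts of the extracellular matrix, among them the fibrillar collagens, elastin and fibrillin. In the heart it is studied as a brake on fibrosis, and in rodent hearts it is made both in fibroblasts and in muscle cells. The family is encoded in 2 gene pairs, mir-29a with mir-29b-1 and mir-29b-2 with mir-29c, each pair being made from a shared primary transcript.

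The mature 3p strands, which are the strands known for collagen control, are shown because the comparison turns on whether 3 nearly identical RNAs moved together. The sequences are from RefSeq (rat build GRCr8), 5′ to 3′, with the seed (bases 2 to 8) in capitals.
rno-miR-29a-3p: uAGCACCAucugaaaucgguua
rno-miR-29b-3p: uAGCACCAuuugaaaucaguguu
rno-miR-29c-3p: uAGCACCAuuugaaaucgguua
All 3 carry the seed AGCACCA, which pairs with the DNA letters TGGTGCT. Counted from 1 at the 5′ end, miR-29a-3p differs from miR-29c-3p by 1 substitution, C10U, and the first 9 bases are the same. From miR-29c-3p to miR-29b-3p there are 3 substitutions, G18A, U21G and A22U, and miR-29b-3p is 1 base longer, 23 against 22. The differences therefore lie in the centre and at the 3′ end, outside the seed. In work on human cells the 3′ end of miR-29b was described as a signal that sends it to the nucleus, and its central bases were linked to a shorter life of the RNA. The first 17 bases of miR-29b-3p and miR-29c-3p are the same, so these central bases are shared with miR-29c-3p. Of the 192 distinct miRNA names in the tables, 184 were matched to a RefSeq mature sequence, and the 4 names with this seed were the 4 members. Among the 693 mature names in the RefSeq table, 3 have it, the miR-29 3p strands shown here.

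The hairpins of the 2 mir-29b copies are shown because their equal counts decide how the rows can be read. The capitals mark the shared 3p strand.
mir-29b-1: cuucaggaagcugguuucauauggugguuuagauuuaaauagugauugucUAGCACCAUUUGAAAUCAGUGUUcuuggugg
mir-29b-2: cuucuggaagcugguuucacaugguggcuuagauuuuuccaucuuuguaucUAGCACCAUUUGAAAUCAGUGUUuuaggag
The mir-29b-1 hairpin lies on the minus strand at chr4:60618334-60618414 (GRCr8), 291 bases from that of mir-29a at chr4:60617955-60618042. The mir-29b-2 hairpin lies on the plus strand at chr13:109098831-109098911, 447 bases before that of mir-29c at chr13:109099359-109099446. The hairpins of mir-29b-2 and mir-29c lie within LOC102550527, annotated as a long noncoding RNA, while no gene other than a miRNA spans mir-29a or mir-29b-1 in that annotation. Both mir-29b hairpins give the same 3p strand, but their 5p strands and loops differ. A read of the shared strand cannot be assigned to 1 copy, and the rows showed no excess of either copy in either library. The tables hold hairpin names and do not say whether reads of the 5p strand, the 3p strand or both were counted. The levels below are those of the named rows.

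The table of each library is made of 2 ordered stretches, and this bears on every comparison of mir-29b with its relatives. The first stretch, of 81 rows, is sorted downward by swim over control and holds mir-29a and mir-29c. The second, of 122 rows, is sorted downward by the control count and holds both mir-29b rows. Only 1 unmarked name, let-7e, is listed in both stretches, and its values are exchanged between them. In the first stretch let-7e had 1193 counts in control and 821 in swim, and in the second it had 821 in control and 1193 in swim. Which listing has the libraries the right way round cannot be told from the tables, and neither can whether the exchange touches other rows. The main results on mir-29b are therefore given as deposited and with the second stretch exchanged, an alternative chosen after seeing the data. A value with no such mention is as deposited.

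As deposited, the family did not move as one. Levels of mir-29a and mir-29c were higher in the swim library, and the level of mir-29b was lower. The row of mir-29a, the most abundant member, had 7384 counts in control and 13470 in swim. As CPM (the count scaled to a common library depth, with totals of 2460845 in control and 3219939 in swim) this was 3001 CPM in control (95% exact binomial interval 2933 to 3069.7) and 4183 CPM in swim (4113 to 4254). The swim level was 1.39 times the control level (95% interval 1.36 to 1.43). The row of mir-29c had 810 counts in control and 1883 in swim, or 329 CPM (307 to 353) and 585 CPM (559 to 612). Its ratio of 1.78 (1.64 to 1.93) was the larger of the pair, and the intervals of mir-29a and mir-29c did not overlap. Each row of mir-29b had 795 counts in control and 246 in swim, or 323 CPM (301 to 346) and 76.4 CPM (67.1 to 86.6). Its ratio was 0.236 (0.204 to 0.273), a level 4.23-fold lower in swim. In the control library mir-29b and mir-29c could not be told apart in level, since their intervals overlapped, while in the swim library they lay far apart. This takes the mir-29b copies as 1 measurement. With the copies summed, the count of mir-29c was 0.509 times that of mir-29b in control (0.468 to 0.555) and 3.83 times in swim (3.46 to 4.24). All intervals and limits express counting error alone, and without molecular identifiers PCR duplicates cannot be told from separate molecules. Because each condition has a single library, the spread between animals is unknown, and the differences carry no test and no p-value.

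**Figure D1:**
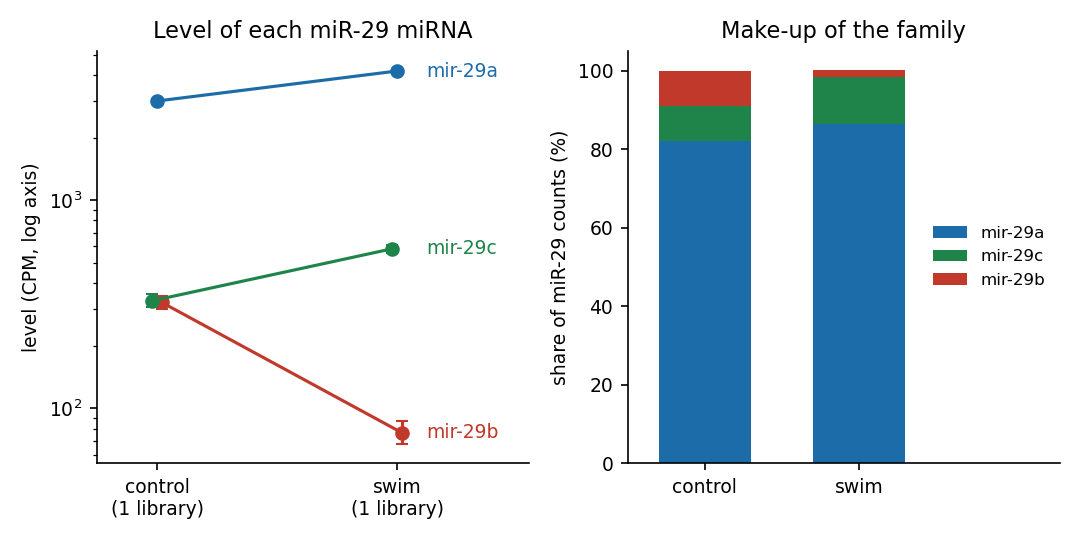
Left, the level of mir-29a, mir-29b and mir-29c in the control and the swim library as deposited (CPM, log axis, points with 95% exact binomial intervals for counting error, 1 library each). With the mir-29b copies taken as 1 measurement, mir-29b and mir-29c start together at 323 and 329 CPM in control and end at 76.4 and 585 CPM in swim. Right, the share of each miRNA in the summed miR-29 counts (percent, stacked bars), with mir-29b at 8.84% in control and 1.58% in swim.

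With the second stretch exchanged, the direction of mir-29b turned. Its ratio became 2.46 (2.13 to 2.85), since control then held 246 counts and swim 795, beside 1.39 for mir-29a and 1.77 for mir-29c, so all 3 were higher in the swim library. Of the 3, mir-29b was then called higher by the 2-fold rule described below, as were 15.0% of all entries tested. With the first stretch exchanged instead, all 3 were lower, at 0.721 for mir-29a, 0.407 for mir-29b and 0.566 for mir-29c. The opposite directions within the family stand in the tables as listed and under neither exchange. Under either exchange mir-29b had the ratio farthest from 1, then mir-29c, then mir-29a.

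A call of higher or lower was made by size, namely a 2-fold difference in either direction after adding 0.5 to both counts, with an interval that left out 1. Entries reaching 20 counts over both libraries, 173 in number, were tested. As deposited, both mir-29b rows were lower, and neither mir-29a nor mir-29c was called. Over all entries tested, 32.9% were lower and 3.47% were higher, so a lower call was common in these tables. In the second stretch 57.1% of 98 entries were lower and 1.02% higher, against 1.33% of 75 lower and 6.67% higher in the first. Against the median of its own stretch, mir-29b had a ratio of 0.516, which is not a call, and mir-29a and mir-29c had ratios of 1.31 and 1.67. Whether the other members were called moved with the scaling, and mir-29c also passed a size rule of 1.5-fold. Median-of-ratios factors, which moved the median of the log2 ratios up by 0.59, gave 2.10 for mir-29a and 2.68 for mir-29c, both higher calls, while mir-29b stayed lower at 0.357. TMM factors gave 2.19 for mir-29c, a higher call, and 1.72 for mir-29a, and they raised that median by 0.30. A scaling multiplies all ratios by 1 factor, which was 1.51 for median-of-ratios factors, 1.23 for TMM factors and 1.31 for counts with no rescaling, so the distance between members is the same under each.

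**Figure D2:**
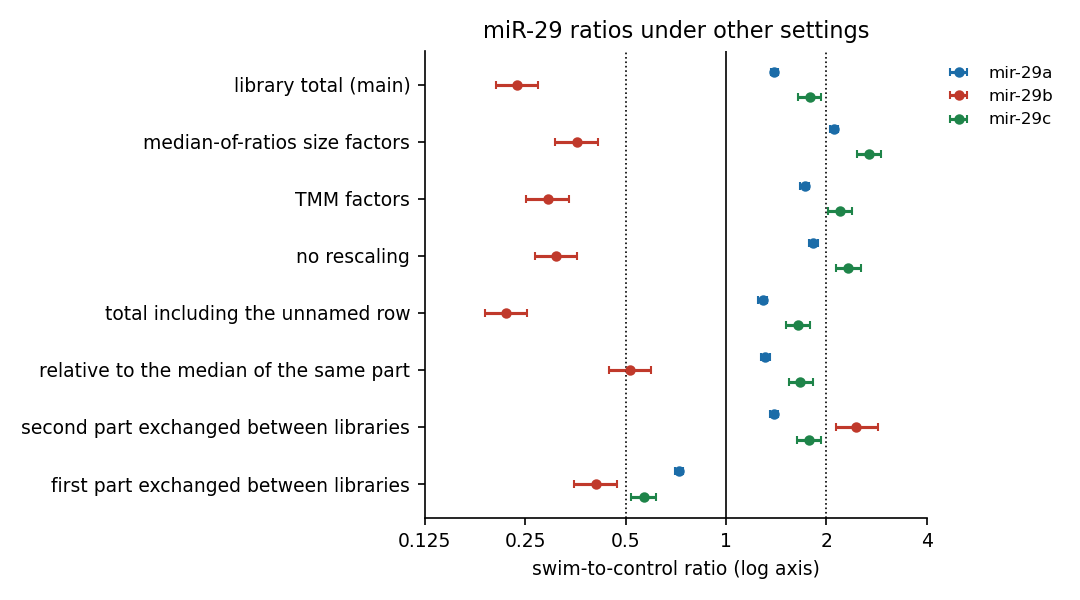
Swim-to-control ratio (log axis) of mir-29a, mir-29b and mir-29c with 95% intervals for counting error, 1 row per scaling or reading of the table; dotted lines mark 2-fold. The ratio of mir-29b stays below that of both relatives under each scaling and moves from 0.236 to 2.46 when the second stretch of the table is exchanged.

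The make-up of the family is free of the library scaling. In control, mir-29a made up 82.1% of the 8989 miR-29 counts (81.3 to 82.9%), mir-29c 9.01% (8.43 to 9.62%) and mir-29b 8.84% (8.27 to 9.45%), with the mir-29b copies taken as 1 measurement. In swim, mir-29a made up 86.4% of 15599 counts (85.8 to 86.9%), mir-29c 12.1% (11.6 to 12.6%) and mir-29b 1.58% (1.39 to 1.79%). The family was thus mostly mir-29a in both libraries. With the second stretch exchanged, mir-29b made up 2.91% in control and 4.92% in swim. If reads had been split between the copies of mir-29b, so that both rows must be summed, its share as deposited would be 16.3% in control and 3.11% in swim.

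The 2 members on chromosome 4 and the 2 on chromosome 13 share a primary transcript within each pair, so a count ratio within a pair would compare RNAs cut from the same transcript. The count of mir-29a was 9.29 times that of mir-29b in control (8.63 to 10). In swim it was 54.8 times as high (48.3 to 62.4), so the ratio changed by 5.90-fold (5.09 to 6.85). The count of mir-29c stood at 1.02 times that of mir-29b in control. In swim it stood at 7.65 times, and the ratio changed by 7.51-fold (6.35 to 8.90). With the second stretch exchanged, these changes were 0.564-fold (0.486 to 0.654) and 0.719-fold (0.607 to 0.851), in the other direction. Because the mir-29b rows do not tell the copies apart, neither ratio is that of 1 gene pair alone. The ratio of mir-29a to mir-29c, which lie in the same stretch of the table, was 9.12 in control (8.48 to 9.81) and 7.15 in swim (6.82 to 7.51). It changed by 0.785-fold (0.718 to 0.857), the same value with the second stretch exchanged and its inverse with the first exchanged. As deposited, mir-29c thus gained on mir-29a in the swim library. The 3p strands of these 2 differ by 1 base, and the sources used here do not say how reads with a mismatch were counted.

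The summed family was a small share of each library. It held 0.365% of the miRNA counts in control (0.358 to 0.373%) and 0.484% in swim (0.477 to 0.492%), a ratio of 1.33 (1.29 to 1.36). The ratio of the sum was 1.46 with the second stretch exchanged, and with the first exchanged it was 0.687, below control. With the mir-29b copies summed the ratio was 1.24.

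Among the 179 distinct entries with a ratio, mir-29a ranked 26 by count in control and 22 in swim. The entry mir-29c ranked 64 in control and 55 in swim, and mir-29b ranked 65 and 80. By ratio, mir-29c ranked 7 from the top of the 161 distinct entries tested, mir-29a ranked 14 from the top and mir-29b ranked 12 from the bottom. With the second stretch exchanged, the ranks of mir-29a and mir-29c by count were the same, but the other places did not hold. By ratio mir-29b then ranked 14, mir-29c 27 and mir-29a 46 from the top of the 161, and by count mir-29b ranked 80 in control and 69 in swim.

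**Figure D3:**
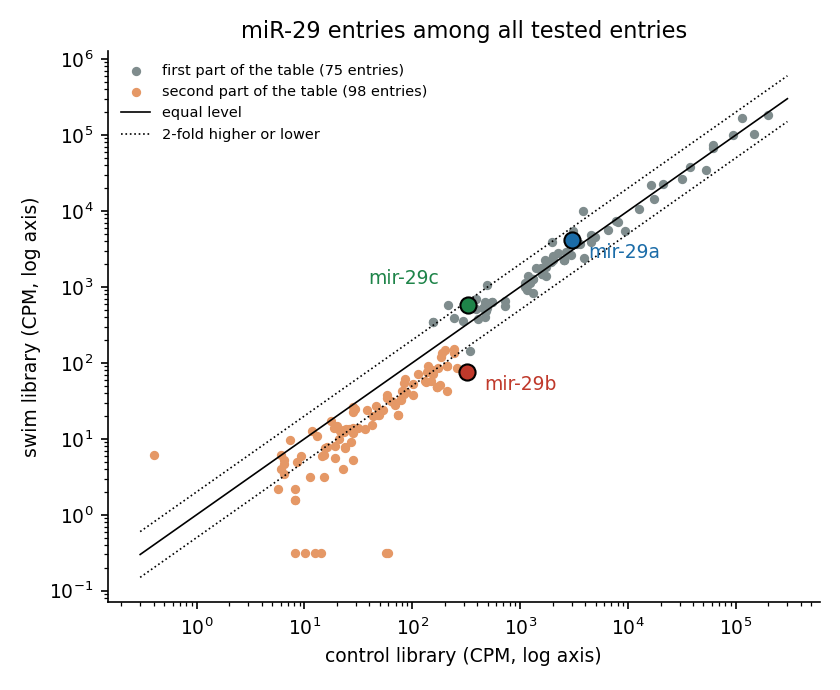
Level in the swim library against level in the control library (CPM, log axes) for the 173 entries tested, each point 1 entry, as deposited, coloured by the stretch (part) of the table it stands in. The solid line marks equal levels and the dotted lines 2-fold; mir-29b lies below the lower dotted line, at 323 CPM in control and 76.4 CPM in swim, and mir-29a and mir-29c lie between the solid and the upper dotted line.

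Entries with a control count within 2-fold of that of mir-29b place both mir-29b and mir-29c against miRNAs of like depth. There were 29 such distinct entries, 17 in the first stretch and 12 in the second. Of these, mir-29b had the second-lowest ratio, after mir-345 at 0.200, and mir-29c ranked 3 from the top, after mir-204 at 2.70 and mir-148b at 2.15. In all, 8 of the 29 were lower and 2 higher, beside 32.9% lower and 3.47% higher over all entries tested. Once the second stretch is exchanged, the control count of mir-29b is 246, and it had 2 as its rank from the top among the 27 entries then within 2-fold of it. The 12 entries of the second stretch ran from 0.200 to 0.735. Those of the first ran from 0.870 to 2.70 apart from mir-301a at 0.424, so the stretches overlapped through that entry. Apart from let-7e and the unnamed row, each entry of the first stretch reached 838 counts or more in 1 of the libraries, and no count in the second exceeded 795, which is the control count of mir-29b. An entry with a control count below 838 therefore enters the first stretch through a high swim count, as mir-29c did, so this division is partly set by the counts compared.

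**Figure D4:**
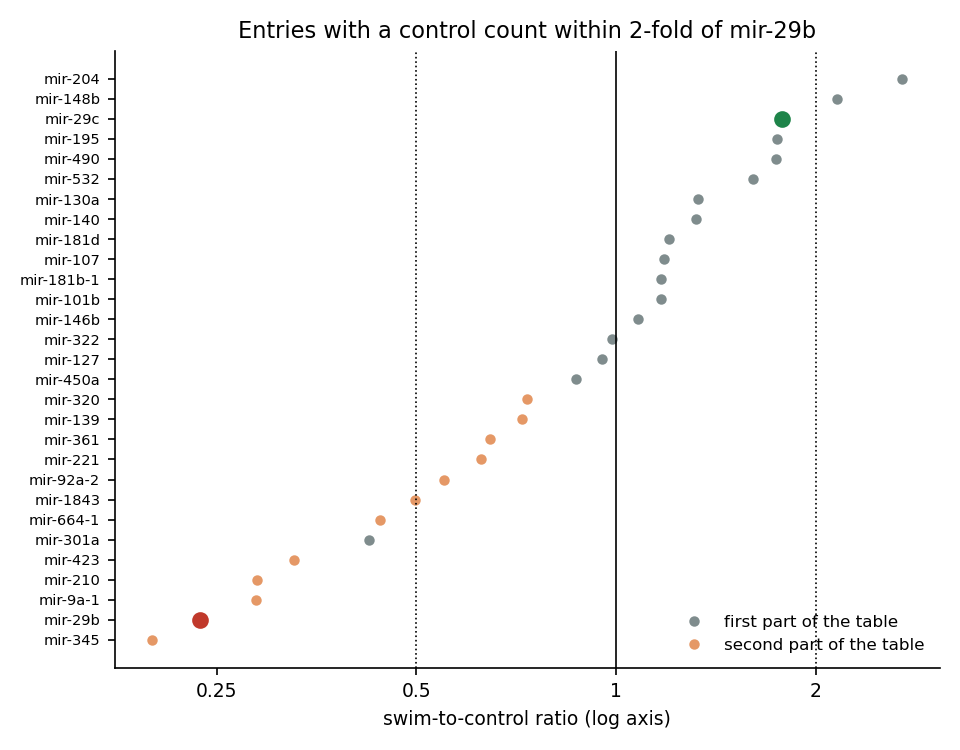
Swim-to-control ratio (log axis) of the 29 distinct entries whose control count lay within 2-fold of that of mir-29b, as deposited, sorted by ratio; grey points stand in the first stretch (part) of the table and orange points in the second, and the large points are mir-29b (red) and mir-29c (green). The mir-29b point at 0.236 is second from the bottom and the mir-29c point at 1.78 ranks 3 from the top.

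The entries with the most similar pair of levels were found by the distance over log2 CPM in control and swim, across 2 libraries. Nearest to mir-29a were mir-30c-1 (distance 0.0452), a heart miRNA known to target connective tissue growth factor, then mir-151 and mir-16. For mir-30c-1 the levels were 2912 CPM (control) and 4147 CPM (swim), with a ratio of 1.42 (1.38 to 1.47) whose interval overlapped that of mir-29a. Nearest to mir-29c were mir-490 (0.146), mir-140 and mir-195. The levels of mir-490 were 309.6 CPM (control) and 539 CPM (swim), with a ratio of 1.74 (1.60 to 1.90). Nearest to mir-29b was mir-423 (0.347), at 261 CPM (control) and 85.4 CPM (swim), with a ratio of 0.327 (0.283 to 0.378) whose interval lay above that of mir-29b. Next came mir-664-1 at 0.682 and mir-92a-2 at 0.903. The nearest entries of each member stood in the same stretch of the table as that member. Exchanging the second stretch left the list the same except that mir-19b-1 took the place of mir-92a-2.

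Other miRNAs studied in fibrosis or collagen control had median ratios near those of the stretch of the table they stood in, with single entries on either side. The list names 35 miRNAs, of which 4 had no row here, and the rest gave 36 tested entries. Of these 2 were higher and 6 lower, beside 3.47% and 32.9% over all entries, and their median ratio was 0.994 against 0.666. That contrast goes with the make-up of the list, which has 27 entries in the first stretch and 9 in the second. In the first stretch the list had a median of 1.08 against 1.06 over its entries, with 2 higher calls and no lower one. In the second it had 0.413 against 0.458, with 6 lower calls of 9 where 57.1% of all entries were lower. The calls of the list are thus near the background of each stretch. Both higher calls belonged to mir-19b, whose 2 copies share their counts, a miRNA of the miR-17-92 cluster that targets connective tissue growth factor, each with 384 counts (control) and 1101 counts (swim) and a ratio of 2.19 (1.95 to 2.47). The lower entries were mir-214 at 0.370, mir-34a at 0.459, mir-7a-1 at 0.413, mir-19a at 0.293, and let-7i and mir-18a, which were listed at 1 count in swim. No count lay between 1 and 5 in either library, so 1 may be a filled-in value and no fold is given for that pair. Exchanging the second stretch made 4 of the 36 list entries higher and none lower, where 15.0% of all entries tested were higher and 1.73% lower.

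By role, 27 tested entries are described in published work as antifibrotic, as miR-29 is, and 9 as profibrotic. Each name was given a single role, and the medians by role rest on that assignment. The entry mir-214, placed as antifibrotic, is also in the fibroblast-associated list below. Of the antifibrotic entries 2 were higher, both among the 20 in the first stretch, and 5 were lower, all among the 7 in the second, with a median ratio of 1.02. Of the profibrotic entries none was higher and 1, in the second stretch, was lower, with a median of 0.924. Over all entries tested, 6.67% were higher in the first stretch and 57.1% were lower in the second. The 6 most abundant of the list were mir-30a, mir-22, mir-133a, mir-26a, mir-378a and mir-30d, and none was called. The ratio was 1.47 for mir-30a and 1.18 for mir-133a, both of which target connective tissue growth factor, 0.703 for mir-22, 1.08 for mir-26a, 1.06 for mir-378a and 0.847 for mir-30d. The ratio of mir-22 lies above 1 under median-of-ratios factors, and that of mir-30d under those, TMM factors and unscaled counts. On this scale mir-29c, at 1.78, stood above each of these 6, and mir-29a, at 1.39, above all but mir-30a. The profibrotic mir-21, raised in activated fibroblasts, stood at 8142 CPM (control) and 7054 CPM (swim), with a ratio of 0.866 (0.850 to 0.883). Under the same 3 settings as for mir-30d its ratio is above 1.

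In a bulk library, fewer cells of a type and less RNA per cell cannot be told apart. The cardiomyocyte list (mir-1, mir-133a, mir-208a, mir-208b and mir-499) had all 5 names present, with summed levels of 68900.3 CPM in control and 85687 CPM in swim. The sum was mostly mir-133a, and the members went apart, with mir-208b higher at 2.64, mir-499 at 1.19, mir-208a at 0.899 and mir-1 at 0.624. Each marker of the labelled heart muscle thus had a row, but their levels were far apart. While mir-133a stood at 61888 CPM (control) and 72772 CPM (swim), mir-1 reached only 1313 CPM (control) and 820 CPM (swim). The cause of this gap was not tested. The 3 fibroblast-associated miRNAs summed to 9652 CPM in control and 8847 CPM in swim. The sum was mostly mir-21, with a ratio of 0.866. Its other members went apart, with mir-199a at 1.25 and mir-214 called lower at 0.370. The row of mir-214 stands in the second stretch, where 57.1% of entries were lower and an exchange turns the direction. The vascular smooth muscle pair summed to 199692 CPM and 187599 CPM, above the cardiomyocyte sum in each library. That sum was mostly mir-143, and the pair went apart, with mir-143 at 0.936 and mir-145 at 1.32. The endothelial mir-126a stood at 37523 CPM and 37987 CPM. Of 5 leukocyte names 4 had a row, summing to 7117 CPM and 6991 CPM. Their ratios were 1.07 for mir-146a, 0.908 for mir-150, 0.785 for mir-142 and 0.552 for mir-342, the last in the second stretch. Of 3 erythroid names 1 had a row, at 29.3 CPM in control and 24.8 CPM in swim. Of 6 names typical of liver, brain or epithelium 2 had a row, mir-9a at 0.287 and mir-122 listed at 1 count in swim. Both were lower as deposited and stand in the second stretch, where 57.1% of entries were lower and an exchange turns the direction. The part of cell make-up in the miR-29 ratios was not tested.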

How the data were processed

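For each library the authors deposited a table of counts, with a hairpin name and a whole number per row, which were taken as unscaled counts. RNA from a miRNeasy kit was sequenced as small RNA libraries on an Illumina HiSeq 2000, per the labels' protocols and the design text. Bowtie 0.12.2 and the builds rn5 and rn4 are named, with no role or order, per the submitters' processing notes. The sources used here do not say how reads were trimmed, how multiply matching reads were counted or whether low counts were replaced.

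Of 203 rows, the unnamed row (Others, 5.41% of all counts in control and 12.5% in swim) and 9 asterisk rows, which repeat unmarked rows, were left out. The let-7e rows stayed in the totals without a ratio, leaving 191 entries. Copies within 2% of each other were taken as 1 measurement for distinct entries. Ratios have exact conditional binomial (Clopper-Pearson) 95% intervals (scipy 1.17.1). TMM factors came from edgeR 4.0.16, used for scaling only. The ratio rule was tried on simulated counts with counting error only. That trial covers neither the spread between animals nor an exchanged stretch. The text names the 4 members, the 3 nearest entries of each, and from the fibrosis list each call and the 6 most abundant entries; other entries were named after their values were seen. Members and lists were chosen with earlier results of these data known.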

Additional observations from a re-analysis of the deposited data

Results flagged for a closer look

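The row that names no miRNA, which enters no comparison here, held 12.5% of all counts in the swim library against 5.41% in the control library. With that row in the library totals the ratio of mir-29a was 1.29 in place of 1.39.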

How the results depend on the processing

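No paired analysis was possible because each condition had 1 library. Under median-of-ratios factors the ratios of mir-29a, mir-29b and mir-29c were 2.10, 0.357 and 2.68 and that of the summed family 2.0; 18 entries were higher and 26 lower, and 7 and 3 of the fibrosis list. Under TMM factors the ratios were 1.72, 0.292, 2.19 and 1.64, with 11 entries higher and 31 lower and 4 of the list higher. With no rescaling they were 1.82, 0.309, 2.32 and 1.74, with 12 higher and 30 lower and 4 of the list higher. With the unnamed row in the total, mir-29a had 1.29 and the family 1.23. Relative to the median of the own stretch of the table, mir-29a had 1.31 and mir-29b 0.516, with 11 entries higher and 11 lower and 2 of the list lower. A 1.5-fold rule gave 12 higher entries, mir-29c among them, and 4 of the list, and a 3-fold rule 1 higher and 26 lower, with 0 and 3 of the list. A minimum summed count of 100, which tests fewer entries, gave 36 lower and 3 of the list. Copies counted once gave 1 higher entry of the list. With the mir-29b copies summed, the shares of mir-29a, mir-29b and mir-29c were 75.5%, 16.3% and 8.28% in control, those of mir-29a and mir-29b were 85.0% and 3.11% in swim, and the family ratio was 1.24.

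With the second stretch exchanged between the libraries, chosen after seeing the data, mir-29b turned to 2.46 and the family ratio was 1.46. The shares of mir-29a were then 87.5% in control and 83.4% in swim, those of mir-29b 2.91% and 4.92%. The changes of mir-29a and mir-29c over mir-29b were 0.564-fold and 0.719-fold, 26 entries were higher and 3 lower, and 4 and 0 of the list. With the first stretch exchanged, the member ratios were 0.721, 0.407 and 0.566 and the family ratio 0.687. In all, 60 of the values under alternatives kept within the interval or count limit of the main value, 59 moved beyond it and 1, a called value (mir-29b), turned. Counting uncalled values too, 6 of the ratios or changes in this tally crossed 1, all under an exchange of a stretch. The tally leaves out the changes between members with the first stretch exchanged. The cause of these moves was not tested. The 246 counts of mir-29b in swim set the widest interval among the members, and the spread between animals cannot be had from 1 library per condition.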

Other observations

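Other related miRNAs were also divided between the 2 ordered stretches of the table, and these pairs were chosen after their values were seen. In 4 such pairs the relative in the first stretch had a ratio above 1 and the other a ratio below 1. Over all entries tested, 43 of 75 in the first stretch were above 1 and 94 of 98 in the second below 1. The pattern is therefore common for any 2 entries divided in this way. The copies mir-92a-1 and mir-92a-2, which give the same 3p strand, had ratios of 1.10 (5001 counts in control, 7190 in swim) and 0.550 (598 and 430). The close relatives mir-19b-1 and mir-19a had 2.19 and 0.293. The neighbours mir-195 and mir-497 had 1.75 and 0.414, and mir-199a and mir-214 had 1.25 and 0.370. Other pairs did not show this: mir-322 and mir-503 (0.986 and 0.836) and mir-450a and mir-542 (0.870 and 0.534) were below 1 on both sides. No tally over all divided relatives was made. The miR-29 members are divided as in the first 4 pairs, with mir-29c and mir-29a in the first stretch and mir-29b in the second. Whether the listing of the libraries bears on these pairs was not tested beyond the exchange reported for miR-29.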
